A study of Mus musculus with 22 samples.

Results

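Livers of 6 mice with chemically induced chronic damage were set against livers of 3 control mice at a similar phase of the circadian clock. The series holds 22 mice, and these 9 are the only ones in the main comparison. The 6 are the DEN/CCl4 mice on vehicle that carry title numbers 76 to 81, and they make up 6 of the 9 mice of that group. The other 3, numbers 92 to 94, were left out because their clock gene levels differ from those of the controls (title numbers 4, 49 and 50). Levels of clock genes on these arrays thus chose the mice, and those genes are described below with no test. All mice were male C57BL/6J. The DEN/CCl4 mice had received a single injection of N-nitrosodiethylamine (DEN, a carcinogen that hepatocytes activate), then carbon tetrachloride (CCl4, a solvent toxic to the liver) every week, and then vehicle for 5 weeks once fibrosis was present. Controls had received saline and oil in place of both agents, and vehicle. The remaining 10 mice received nintedanib, a kinase inhibitor, after the same damage, and they enter here only through the estimate of the spread. RNA came from 20 mg of liver outside any tumour, and an Affymetrix array gave 1 log2 expression value per gene and mouse for 13392 genes. No age, litter, hour of death or array batch is given, and all control title numbers lie outside the range of the DEN/CCl4 numbers, so model and batch cannot be told apart. In whole liver, more cells of a type and more RNA per cell cannot be told apart either.

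DEN forms DNA adducts in hepatocytes around the central vein, where the P450 enzymes that activate it are most abundant, and CCl4 kills hepatocytes of the same zone through the same enzymes. Repeated killing draws monocytes and neutrophils into the lobule, activates stellate cells to lay down fibrillar collagen, and makes surviving hepatocytes divide. The liver clock drives daily rhythms of many transcripts, among them genes of lipid synthesis and P450 genes. Mice killed at different hours can therefore differ in these genes without any difference in damage, which is the reason for setting mice of a like clock phase side by side.

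The clock genes matched in most respects but not in all. Of 28 measured clock and clock output genes, 3 had levels in mice 76 to 81 that did not overlap the controls. Among all genes 7.97% did not overlap for these groups. In mice 92 to 94 it was 23 of the 28, and the share over all genes was not counted for them. Groups of 3 and 3 mice also separate more easily than groups of 6 and 3. Differences of at least 1 on the log2 scale numbered 1 in mice 76 to 81 and 16 in mice 92 to 94. Dbp, a clock output factor, lay between 5.04 and 6.07 (median 5.37) in mice 76 to 81 and between 9.06 and 9.27 in mice 92 to 94, against 5.13 to 6.18 in controls. Arntl, which encodes the activator BMAL1, lay between 5.90 and 6.17 (median 6.07) in mice 76 to 81 and between 2.91 and 3.53 in mice 92 to 94, against 6.20 to 6.69 in controls. The 6 mice thus sat slightly below every control for Arntl, while Dbp overlapped. Per2, a repressor of the clock, differed most: it lay between 3.06 and 3.61 (median 3.42) in mice 76 to 81, against 4.28 to 4.64 in controls, with no overlap. The mean level over 14 core clock genes was 4.72 to 4.94 in mice 76 to 81, against 5.00 to 5.17 in controls. In mice 92 to 94 it was 5.15 to 5.26, which overlaps the controls although Arntl and Dbp lie far from them. Rises and falls of single genes cancel in this mean in mice 92 to 94, so it does not measure the phase of the clock. In mice 76 to 81 they did not cancel: 13 of the 14 core clock genes had negative differences and 1 a positive one. The median of the 14 was -0.15, so the match to the controls was not complete.

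**Figure D1:**
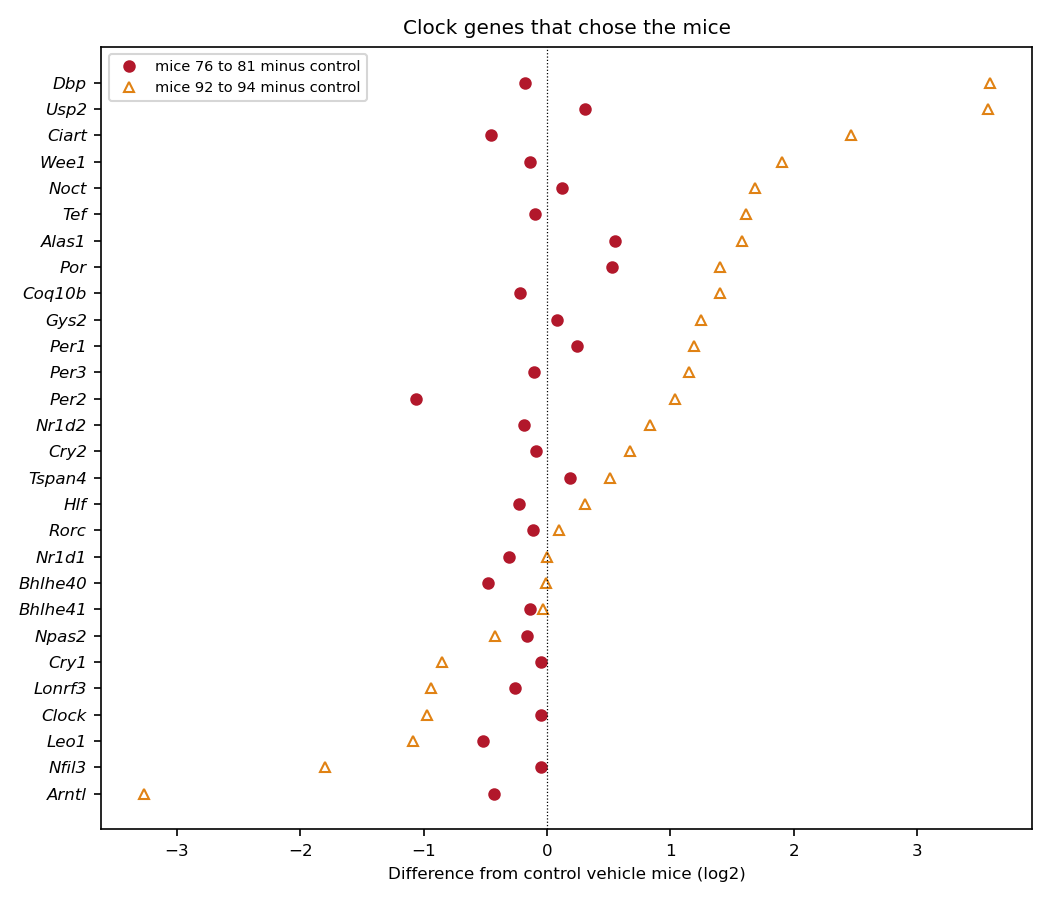
Difference from the mean of the 3 control vehicle mice (x axis, log2) for each measured clock gene (y axis), filled circles for the mean of the 6 DEN/CCl4 mice numbered 76 to 81 and open triangles for the mean of the 3 numbered 92 to 94. Most circles lie near 0 with Per2 at -1.07 the farthest, while the triangles run from -3.27 for Arntl past 3 for Dbp.

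Against this background 318 of 13392 genes (2.37%) passed limma's test at an adjusted p under 0.05, 204 of them higher (1.52%) and 114 lower (0.851%) in DEN/CCl4 livers. These totals run over the whole table, so 1 clock gene, Per2, is counted in them, and nothing is read from its test, since clock levels chose the mice. At least a 2-fold difference was seen for 60 of the higher and 37 of the lower genes. For 290 of the 318 the 6 mice and the 3 controls did not overlap, a pattern found in 1068 genes (7.97%) of all tested, 523 of them higher (3.91%) and 545 lower (4.07%). The median difference over all genes was -0.02. Without control mouse 4 the count was 137, and without control mouse 50 it was 121, while leaving out control 49 or any of the 6 DEN/CCl4 mice gave 252 to 316. All 318 kept their direction in each of those fits.

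The largest rises joined a lipoprotein gene to genes of macrophages and matrix, the cytotoxic cell gene Ccl5 and the neutrophil gene S100a8. Apoa4, an apolipoprotein of the liver and gut that rises with hepatic lipid load, lay between 10.10 and 10.78 (median 10.51) in DEN/CCl4 livers, against 8.31, 8.05 and 7.95 in controls. Its levels were far apart and tight within groups, a 5.13-fold difference (2.36 ± 0.17 log2, SE; adjusted p = 4.46e-09). Ccl5, a chemokine released by T and NK cells, lay between 5.75 and 7.39 (median 6.70), against 4.69, 4.41 and 4.50 in controls (2.17 ± 0.32, adjusted p = 0.000327). Mouse 81 was lowest and mouse 80 highest for Ccl5, and all 6 lay above every control. Tuba8, an alpha tubulin isotype, stood at 4.64 to 5.17 (median 4.93) in DEN/CCl4 livers, against 3.41, 3.18 and 3.18 in controls (1.66 ± 0.17, adjusted p = 2.22e-06). Gstm3, a glutathione transferase, lay between 8.52 and 9.28 (median 8.95) in DEN/CCl4 livers, against 7.46, 7.03 and 7.03 in controls (1.78 ± 0.25, adjusted p = 0.000168). Ly6d, a lipid-anchored surface protein, lay between 4.48 and 5.34 (median 5.01), against 2.68, 2.47 and 3.98 in controls (1.96 ± 0.37, adjusted p = 0.00419). Control mouse 50 was the high control for Ly6d and still lay below all 6.

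**Figure D2:**
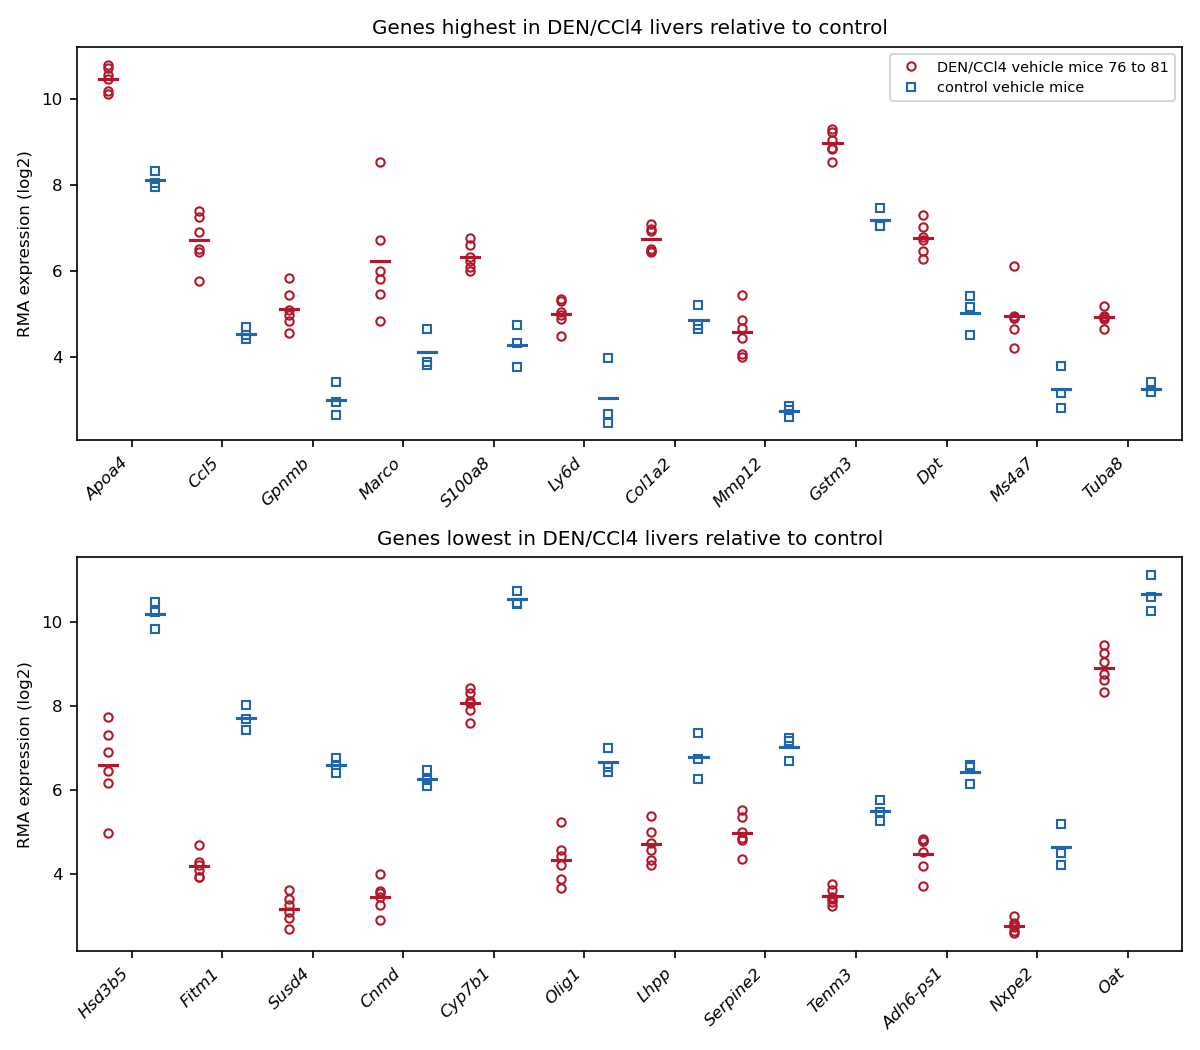
Expression (y axis, RMA log2) in each DEN/CCl4 vehicle mouse numbered 76 to 81 (circles) and each control vehicle mouse (squares) for the 12 genes with the largest rises and the 12 with the largest falls outside the clock lists; bars are group means. The groups do not overlap for any of the 24 genes, which the choice of genes required, and Marco in the 6 mice has the widest spread among the rises.

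Genes listed as markers of monocyte-derived macrophages rose. Of 17 measured genes on this list 8 passed the test, all higher, and 9 did not pass. All 17 differences were positive, with a median of 0.76 against -0.02 over all genes. Whether recruited or resident macrophages carry the rise was not tested. Gpnmb, a glycoprotein of lipid-laden and scar-associated macrophages, lay between 4.55 and 5.84 (median 5.03) in DEN/CCl4 livers, against 2.95, 2.65 and 3.40 in controls. The difference was 2.12 ± 0.33 (adjusted p = 0.000499). Mmp12, the macrophage elastase, lay between 3.99 and 5.44 (median 4.55), against 2.77, 2.61 and 2.85 in controls (1.83 ± 0.39, adjusted p = 0.00998). Clec7a, the receptor Dectin-1, was 7.14 to 7.57 (median 7.40) in DEN/CCl4 livers, against 6.02, 6.75 and 6.24 in controls (1.04 ± 0.16, adjusted p = 0.000497). Ms4a7 (1.70 ± 0.32, adjusted p = 0.00419), Lgals3, which encodes galectin-3 (1.02 ± 0.20, adjusted p = 0.00556), and the tetraspanin Cd9 (0.77 ± 0.18, adjusted p = 0.0201) rose too, as did Lyz2 and Ctss (adjusted p = 0.0438 and 0.0204). The mean level of the whole list was 5.65 to 6.18 in DEN/CCl4 livers, against 4.80 to 5.12 in controls. Only 2 of the 8 passed without control mouse 4 and 5 without control 50: without control 4 the adjusted p was 0.0505 for Mmp12, 0.0541 for Ms4a7, 0.0636 for Lgals3 and 0.131 for Cd9, and without control 50 it was 0.168 for Cd9. Ctss lost its call without control 4 or 50 (0.155 and 0.0896), and Lyz2 without any 1 control or any of mice 76 and 78 to 80 (0.0621 to 0.205).

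Markers of resident Kupffer cells moved in no common direction, with 1 of 10 higher, 1 lower and a median of 0.06. Marco, a scavenger receptor of resident macrophages, lay between 4.84 and 8.53 (median 5.90) in DEN/CCl4 livers, against 3.81, 4.65 and 3.89 in controls (2.11 ± 0.50, adjusted p = 0.0226), and mouse 80 held the 8.53. Cd163, the haemoglobin scavenger receptor, was lower, at 4.47 to 5.70 (median 4.93) against 5.72, 5.96 and 5.52 in controls (-0.78 ± 0.19, adjusted p = 0.0232), and mouse 76 overlapped the controls. Clec4f, the lectin that defines Kupffer cells and was picked here after its values were seen, was 7.04 to 7.53 against 7.17, 7.54 and 7.16 in controls. Without control 4 the adjusted p was 0.124 for Marco and 0.0888 for Cd163. It was 0.129 for Marco without control 50, and 0.117 and 0.0525 for Cd163 without control 49 and without mouse 77. Neither passed when only the 9 arrays compared (0.0877 for Marco and 0.0895 for Cd163) or only the 12 vehicle arrays (0.061 and 0.0714) set the spread. With all 9 DEN/CCl4 vehicle mice set against control and Dbp minus Arntl as a covariate, Marco and Cd163 gave 0.0503 and 0.0774. Marco gave 0.0774 with mice 92 to 94 pooled in.

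S100a8 and S100a9, whose products form the calprotectin dimer of neutrophils and monocytes, rose together. S100a8 lay between 6.00 and 6.76 (median 6.26) in DEN/CCl4 livers, against 4.73, 4.32 and 3.77 in controls (2.06 ± 0.24, adjusted p = 2.17e-05). S100a9 lay between 6.32 and 7.48 (median 6.64), against 5.53, 5.51 and 4.68 in controls (1.48 ± 0.32, adjusted p = 0.0132), and lost its call without control 50 (adjusted p = 0.138). Every DEN/CCl4 mouse exceeded every control for both. They were the only 2 of 14 measured neutrophil markers to pass, and the list's median was 0.28. Of 16 NK and cytotoxic genes 3 rose: Ccl5, the lectin receptor Klrd1 (0.94 ± 0.21, adjusted p = 0.014) and the granule gene Nkg7 (3.35 to 4.05 against 3.05, 2.07 and 2.93 in controls, adjusted p = 0.0154). The median of these 16 was 0.15, with 12 positive and 4 negative differences. Klrd1 lost its call without control 4 (adjusted p = 0.0602) or 50 (adjusted p = 0.093), and Nkg7 without control 49 (adjusted p = 0.128). None of 20 T cell genes and none of 23 interferon response genes passed limma's test, with medians of 0.15 and 0.09, and 4 of each list had an unadjusted p under 0.05, against 1782 of the 13392 genes tested (13.3%).

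The stretches of sequence before the starts of S100a8 and Mmp12 show the letters GAGGAAGT that the myeloid factor PU.1 can bind. They are shown because both genes are among the largest rises and both carry the motif. Each run holds the 250 bases before the annotated start, from RefSeq on build GRCm38.p6, 5′ to 3′ on the gene's strand, in lower case with matches in capitals. S100a8 lies at chr3:90668821-90669070 on the + strand, with the motif on the opposite strand at position -172 and the letters TATAAA at -30, counted back from the start. For Mmp12 the first of its RefSeq starts is shown, chr9:7344147-7344396 on the + strand, with the motif on the opposite strand at -88. Its second start, chr9:7347124-7347373, holds neither the PU.1 letters nor TATAAA.
S100a8: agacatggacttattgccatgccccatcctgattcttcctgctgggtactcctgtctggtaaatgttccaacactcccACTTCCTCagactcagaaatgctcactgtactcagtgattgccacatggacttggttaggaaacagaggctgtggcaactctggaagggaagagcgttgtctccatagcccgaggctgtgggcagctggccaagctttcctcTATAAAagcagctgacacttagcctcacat
Mmp12: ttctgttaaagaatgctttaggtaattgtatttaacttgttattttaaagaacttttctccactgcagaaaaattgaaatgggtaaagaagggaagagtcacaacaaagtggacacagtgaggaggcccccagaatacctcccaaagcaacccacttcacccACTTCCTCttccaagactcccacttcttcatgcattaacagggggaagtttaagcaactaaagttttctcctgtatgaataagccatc
Of the genes that rose and have a RefSeq promoter, 8 of 156 held the PU.1 letters on either strand (5.13%), against 1 of 91 genes that fell (1.1%) and 2.73% of all 10315 genes with a promoter. TATAAA was found in 9.62% of the promoters of genes that rose, 9.89% of those of genes that fell, and 11.4% of all. The 8 with the PU.1 letters were S100a8, Mmp12, Prom1, Cenpa, C1qc, Pf4, Ano6 and Trim24, of which several are not myeloid genes. The motif was chosen after the shares of several motifs had been seen, and a match is only a run of letters.

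MHC class II genes, through which macrophages, dendritic cells and B cells present peptides, rose for 4 of 11 measured members, H2-Eb1, H2-Ab1, H2-Aa and Cd74. H2-Eb1 lay between 7.61 and 8.13 (median 7.82) in DEN/CCl4 livers, against 6.81, 7.26 and 7.04 in controls (0.80 ± 0.16, adjusted p = 0.00524). H2-Ab1 (0.84 ± 0.18, adjusted p = 0.0114), the invariant chain Cd74 (0.75 ± 0.15, adjusted p = 0.00556) and H2-Aa (0.67 ± 0.17, adjusted p = 0.0404) also rose, and all 11 measured genes of the list had positive differences with a median of 0.53. None of the 4 passed without control 4 (adjusted p = 0.0636 for H2-Eb1, 0.133 for H2-Ab1, 0.0559 for Cd74 and 0.276 for H2-Aa). Cd74 also lost its call without control 50 (adjusted p = 0.0708), and H2-Aa without control 49 or 50 or any of mice 77 to 79 (0.0559 to 0.0896). The 5 measured MHC class I and peptide loading genes had a median of -0.09, and none passed limma's test or had an unadjusted p under 0.05. Of 15 measured B and plasma cell genes 2 rose, Jchain and Blnk, while 9 differences were positive and 6 negative, with a median of 0.14. Jchain, the joining chain of antibodies and a marker of plasma cells, rose by 1.24 ± 0.25 (adjusted p = 0.00749) and lost its call without control 50 (adjusted p = 0.0842). Blnk lost its call without control 49 or 50 or any of mice 76 to 78 and 80 (0.0534 to 0.313).

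Collagen genes rose in DEN/CCl4 livers. Of 16 measured collagen chains 8 rose and none fell, with a median of 0.59: Col1a2, Col3a1, Col4a1, Col4a2, Col5a2, Col6a2, Col6a3 and Col14a1. Col1a2, a chain of type I collagen, lay between 6.44 and 7.08 (median 6.71), against 4.65, 5.20 and 4.73 in controls (1.86 ± 0.20, adjusted p = 6.01e-06). Col3a1, the chain of type III collagen, was 6.59 to 7.22 (median 6.82) in DEN/CCl4 livers, against 5.47, 5.78 and 5.60 in controls (1.25 ± 0.18, adjusted p = 0.000264). Both groups were tight, and neither gene overlapped. Col1a1, the partner of Col1a2 and named here after its values were seen, was 3.06 to 3.71 in DEN/CCl4 livers, against 2.83, 2.73 and 2.37 in controls, and did not pass (0.80 ± 0.31, adjusted p = 0.216). Of the 16 chains, 3 rose without control 4, 5 without control 49, 4 without control 50 and 5 to 8 without 1 DEN/CCl4 mouse. Col14a1 lost its call without control 4 or 50 or any of mice 76 and 78 to 81 (0.0501 to 0.198). Col6a2 lost it without any 1 control or any of mice 76, 78, 79 and 81 (0.0507 to 0.166). Col4a1 lost it without control 4 or 50 or mouse 76 (0.0512 to 0.144). Col4a2 lost it without control 4 or 49 (0.151 and 0.158), and Col6a3 without any 1 control (0.0503 to 0.0977).

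Among 26 proteoglycans and glycoproteins of the matrix 6 rose, with a list median of 0.28. Dpt, dermatopontin, which binds decorin and collagen, lay between 6.27 and 7.30 (median 6.74) in DEN/CCl4 livers, against 4.49, 5.17 and 5.42 in controls (1.73 ± 0.28, adjusted p = 0.00071). Lum, the collagen-binding proteoglycan lumican, lay between 7.55 and 8.22 (median 7.98), against 6.19, 6.63 and 6.56 in controls (1.46 ± 0.20, adjusted p = 0.000145). Sparc rose by 0.77 ± 0.14 (adjusted p = 0.00276). The other 3 were the fibrillin gene Fbn1, Sparcl1 and the basement membrane gene Nid1. Of the 26 genes, 3 rose without control 4, 5 without control 49, 3 without control 50 and 3 to 6 without 1 DEN/CCl4 mouse. Fbn1 lost its call without any 1 control or either of mice 76 and 80 (0.056 to 0.12), Sparcl1 without control 4 or 50 or either of mice 76 and 79 (0.0507 to 0.265), and Nid1 without control 4 or 50 or any of mice 76, 77 and 79 to 81 (0.0529 to 0.299). Of 28 genes that cut, inhibit cutting of or crosslink the matrix 4 rose: Mmp12, the gelatinase Mmp2, the plasminogen activator Plat and the crosslinking oxidase Loxl1. Mmp2 lay between 4.78 and 5.62 (median 5.23), against 4.06, 3.62 and 4.05 in controls (1.32 ± 0.24, adjusted p = 0.00278). Plat lost its call without control 4 (adjusted p = 0.0728) or 50 (adjusted p = 0.0558), and Loxl1 without any 1 control or any of mice 76 to 79 (0.0566 to 0.243). Acta2, the smooth muscle actin of activated stellate cells, and Timp1, an inhibitor of matrix cutting, were picked after their values were seen. Acta2 lay between 4.26 and 5.10 against 4.49, 4.36 and 4.12 in controls (0.33 ± 0.20, adjusted p = 0.516), and Timp1 between 3.02 and 4.33 against 3.58, 3.55 and 2.94 in controls (0.32 ± 0.33, adjusted p = 0.772). Only Vim and Rgs5 of 19 stellate cell and fibroblast markers rose, and only Tgfbr2 of 14 genes of the TGF-beta pathway. Vim lost its call without control 4 (adjusted p = 0.143) or 50 (adjusted p = 0.136). Rgs5 lost it without control 49 or 50 or mouse 77 (0.0525 to 0.136), and Tgfbr2 without control 4 or 50 or any of mice 76, 78, 80 and 81 (0.057 to 0.264).

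**Figure D3:**
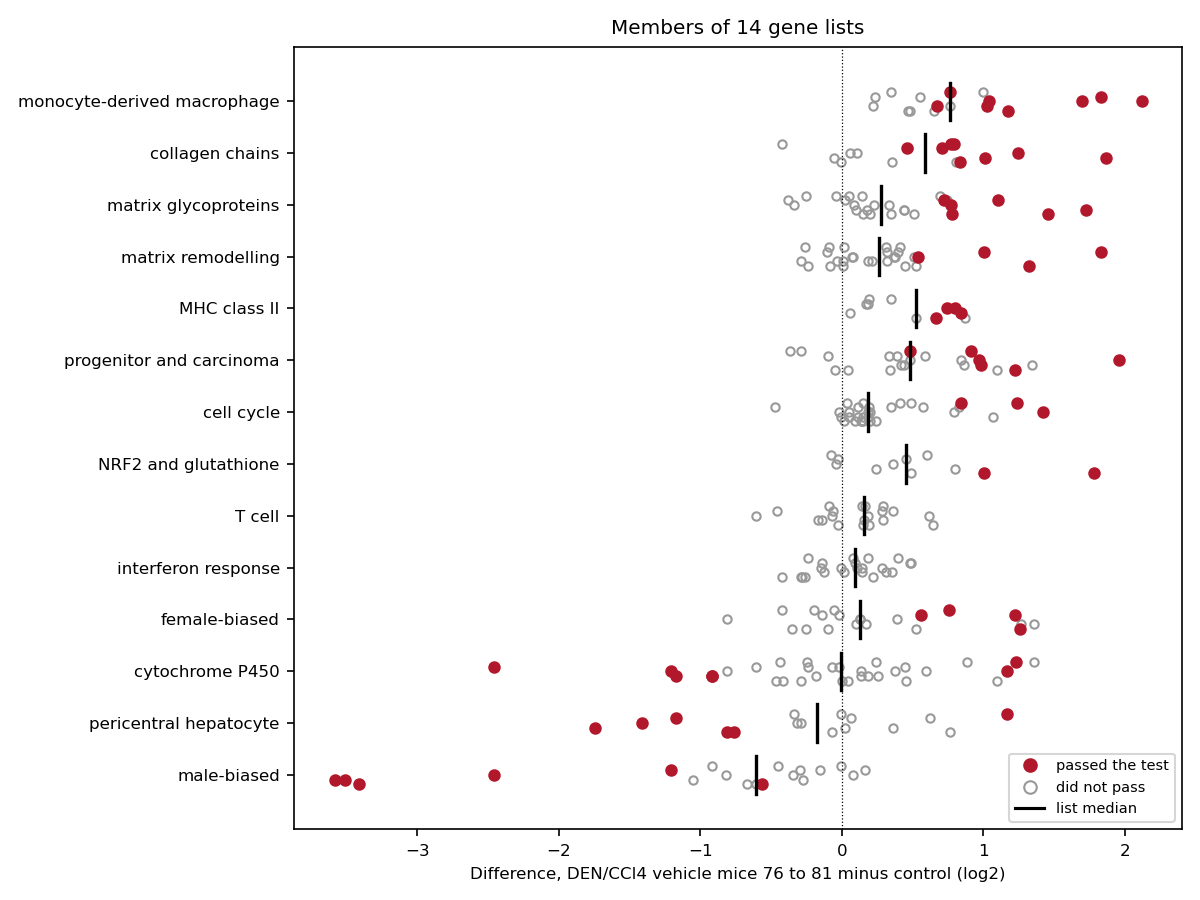
Difference between the mean of the 6 DEN/CCl4 mice and the mean of the 3 control mice (x axis, log2) for every measured member of 14 gene lists (rows), filled where the gene passed limma's test and open where it did not, with the list median as a black line. Macrophage and collagen lists lie to the right with medians of 0.76 and 0.59, and male-biased genes lie to the left with a median of -0.61.

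The largest falls were in hepatocyte genes of male liver. Male mice secrete growth hormone in pulses, which keeps these genes on through STAT5b. Of 19 measured male-biased genes 6 fell and none rose, with a median of -0.61: Hsd3b5, Fitm1, Susd4, Cyp7b1, Cyp2u1 and C8b. The mean level over the 19 was 6.74 to 7.28 in DEN/CCl4 livers, against 8.03 to 8.34 in controls. Hsd3b5, a steroid dehydrogenase of male liver, lay between 4.97 and 7.72 (median 6.67), against 9.82, 10.22 and 10.46 in controls (-3.58 ± 0.79, adjusted p = 0.0144). The spread over the 6 mice was wide, with mouse 76 lowest and mouse 81 highest, and all lay below the controls. The call was lost without control 4 (adjusted p = 0.0541) or 50 (adjusted p = 0.0906).

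Fitm1, which helps partition fat into droplets, lay between 3.92 and 4.69 (median 4.16) in DEN/CCl4 livers, against 8.01, 7.41 and 7.67 in controls (-3.51 ± 0.33, adjusted p = 8.34e-07). Susd4, an inhibitor of complement activation, lay between 2.70 and 3.62 (median 3.18), against 6.59, 6.41 and 6.76 in controls (-3.41 ± 0.21, adjusted p = 3.94e-10). These were 11.4-fold and 10.7-fold falls, with a gap of over 2 log2 units between the groups. Cyp7b1, the oxysterol hydroxylase of the alternative bile acid pathway, lay between 7.59 and 8.41 (median 8.09), against 10.45, 10.42 and 10.72 in controls (-2.46 ± 0.32, adjusted p = 8.47e-05). Of 21 female-biased genes 4 rose (Abcd2, Prom1, Trim24 and Cyp3a44) and none fell, with a median of 0.12. Abcd2, a peroxisomal transporter of very long fatty acids, lay between 5.53 and 6.08 (median 5.77), against 4.47, 4.94 and 4.20 in controls (1.26 ± 0.20, adjusted p = 0.000698). Cyp2u1 lost its call without control 50 (adjusted p = 0.0762). Trim24 lost it without control 49 or 50 or any of mice 78 to 80 (0.0517 to 0.159), Cyp3a44 without control 4 or 49 or any of mice 76 to 79 (0.0557 to 0.335), Prom1 without control 4 (0.0567), and C8b without any 1 control or any of mice 76, 77, 78 and 80 (0.0659 to 0.172). Igfbp3 alone passed among 17 genes of the growth hormone and IGF axis, and it rose (0.65 ± 0.16, adjusted p = 0.0238; 0.154 without control 4, 0.0975 without control 50 and 0.0528 without mouse 80).

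Genes of the pericentral zone, the zone that both agents injure, fell in part, and a link to that injury was not tested. Of 16 measured, 5 fell, 1 rose (Cyp7a1) and 10 did not pass, with a median of -0.18. Among all genes 0.851% fell and 1.52% rose. Differences were negative for 10 of the 16 and positive for 6, and the genes detailed next are among those that fell. Oat, the ornithine aminotransferase of pericentral hepatocytes, lay between 8.33 and 9.44 (median 8.90) in DEN/CCl4 livers, against 11.10, 10.26 and 10.59 in controls (-1.74 ± 0.28, adjusted p = 0.000698). Slc1a2, a glutamate transporter of the same cells, lay between 4.99 and 5.78 (median 5.29), against 6.90, 6.65 and 6.75 in controls (-1.42 ± 0.24, adjusted p = 0.00112). Cyp2c37 lay between 8.97 and 9.51 (median 9.35), against 10.54, 10.41 and 10.50 in controls (-1.17 ± 0.22, adjusted p = 0.00419). For these 3 genes the groups did not overlap, and the calls held with any of the 9 mice left out. Glul, the glutamine synthetase that marks the cells next to the vein, was 9.45 to 9.99 (median 9.73) in DEN/CCl4 livers, against 10.64, 10.60 and 10.45 in controls (-0.82 ± 0.20, adjusted p = 0.0238). The adjusted p of Glul was 0.12, 0.0769 and 0.08 without control 4, 49 and 50, and 0.0532 without mouse 80. It was 0.0777 when only the 12 vehicle arrays set the spread, 0.0656 with quantile normalization repeated, and 0.0812 with Dbp minus Arntl as a covariate. None of 8 measured periportal genes passed limma's test, with a median of 0.24 and 3 at an unadjusted p under 0.05, all higher, against 13.3% of all genes. Only 2 of 17 listed hepatocyte markers have a value in the deposited table, so loss of hepatocytes as such was not measured.

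Of 18 measured genes of bile acid synthesis and transport 2 rose, Cyp7a1 and the exporter Abcc4, 1 fell, Cyp7b1, and 15 did not pass, with a median of -0.12. Without control 50 none of the 18 rose. Cyp7a1, the rate-limiting enzyme of the classical pathway, lay between 7.83 and 9.40 (median 8.39) in DEN/CCl4 livers, against 7.83, 6.99 and 7.06 in controls (1.17 ± 0.29, adjusted p = 0.0265). Cyp39a1, which hydroxylates an oxysterol made in the brain, lay between 7.64 and 8.22 (median 7.95), against 6.93, 6.68 and 6.55 in controls (1.23 ± 0.19, adjusted p = 0.000581), and is counted on the P450 list only. Cyp7a1 is itself a rhythmic gene, and its call was lost without control 49 (adjusted p = 0.121), control 50 (adjusted p = 0.162) or mouse 80 (adjusted p = 0.0524). Of 32 cytochrome P450 genes 2 rose (Cyp7a1 and Cyp39a1) and 5 fell (Cyp2c37, Cyp2c54, Cyp2j6, Cyp2u1 and Cyp7b1), with a median of -0.01. Without control 50, 1 rose and 3 fell. Cyp2c54 lost its call without control 4 or 50 or any of mice 76 to 80 (0.0535 to 0.173), and Cyp2u1 without control 50 (0.0762). Cyp2j6, an arachidonic acid epoxygenase, lay between 5.89 and 6.48 (median 6.16), against 7.11, 6.85 and 7.24 in controls (-0.92 ± 0.16, adjusted p = 0.00193). Nr1i3, the receptor CAR that drives many P450 genes, was 6.25 to 6.74 (median 6.54) in DEN/CCl4 livers, against 7.01, 7.14 and 7.69 in controls (-0.76 ± 0.19, adjusted p = 0.0308). The adjusted p of Nr1i3 was 0.267 without control 50, 0.0503 without control 49, and 0.0662, 0.0646 and 0.0502 without mice 77, 79 and 81. It was 0.0584 when only the 12 vehicle arrays set the spread, and 0.0632 with Dbp minus Arntl as a covariate.

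Promoters of Cyp2j6 and Nr1i3 are shown because both hold CACGTG, the E-box that CLOCK and BMAL1 can bind, and because the mice were chosen by the clock. Cyp2j6 lies at chr4:96553652-96553901 on the - strand, with the E-box at -44, and Nr1i3 at chr1:171213720-171213969 on the + strand, with the E-box at -244. E-boxes are in capitals.
Cyp2j6: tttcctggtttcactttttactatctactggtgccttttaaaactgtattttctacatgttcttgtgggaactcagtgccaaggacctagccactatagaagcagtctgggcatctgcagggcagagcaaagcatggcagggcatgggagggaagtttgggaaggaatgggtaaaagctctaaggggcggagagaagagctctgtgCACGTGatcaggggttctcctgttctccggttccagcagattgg
Nr1i3: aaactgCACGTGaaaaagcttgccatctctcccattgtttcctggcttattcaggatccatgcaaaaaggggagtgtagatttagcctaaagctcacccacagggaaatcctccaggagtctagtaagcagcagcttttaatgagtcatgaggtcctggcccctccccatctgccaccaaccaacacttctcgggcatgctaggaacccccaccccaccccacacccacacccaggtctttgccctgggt
CACGTG, which reads the same on both strands, was present in 14 of 91 promoters of genes that fell (15.4%), in 10 of 156 of genes that rose (6.41%) and in 8.07% of all 10315. Clock list genes are outside these sets of genes that rose or fell. The D-box TTATGNAA was in 2.2% of promoters of genes that fell, 2.56% of those that rose and 2.88% of all, and the STAT5 motif TTCNNNGAA in 7.69%, 5.77% and 7.84%, on either strand. CACGTG is also read by factors outside the clock. No binding was measured, so these shares describe letters only.

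Other large falls were in genes with varied roles. Cnmd, chondromodulin, an inhibitor of vessel growth known from cartilage, lay between 2.89 and 4.01 (median 3.49) in DEN/CCl4 livers, against 6.09, 6.46 and 6.23 in controls (-2.80 ± 0.41, adjusted p = 0.000272). Serpine2, an inhibitor of thrombin and plasmin, lay between 4.36 and 5.53 (median 4.93), against 7.22, 6.69 and 7.15 in controls (-2.04 ± 0.27, adjusted p = 8.47e-05). Tenm3, a teneurin adhesion protein, lay between 3.25 and 3.76 (median 3.42), against 5.25, 5.46 and 5.75 in controls (-2.03 ± 0.23, adjusted p = 8.87e-06). All 3 genes separated the groups by more than 1 log2 unit. Lhpp, a histidine phosphatase reported as a suppressor of liver tumours in mice, lay between 4.22 and 5.39 (median 4.66), against 7.34, 6.25 and 6.73 in controls (-2.07 ± 0.32, adjusted p = 0.000518). Olig1 fell by 2.32, Nxpe2 by 1.86 and the pseudogene Adh6-ps1 by 1.96, and probes of a pseudogene may also read its parent. None of these 7 genes is on a list. Fgf1, a fibroblast growth factor, and Vegfa were the 2 of 19 genes on a list of receptor kinases and their ligands that fell, and none rose. Fgf1 lay between 6.04 and 6.46 (median 6.32), against 7.31, 7.08 and 7.53 in controls (adjusted p = 0.00308). Cela1, an elastase first known from the pancreas, was 5.84 to 6.43 against 7.73, 7.61 and 7.56 in controls (-1.47 ± 0.20, adjusted p = 0.000146), and it was the only 1 of 11 pancreas acinar genes to pass.

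Genes of division and of the progenitor state rose in small numbers. Of 31 cell cycle genes 3 rose, 28 had a positive difference and the median was 0.18. Ccnd1, the cyclin of entry into the cycle, lay between 7.26 and 7.76 (median 7.49) in DEN/CCl4 livers, against 5.93, 6.56 and 5.85 in controls (1.42 ± 0.23, adjusted p = 0.000982). Cenpa, the histone of centromeres, lay between 4.91 and 5.15 (median 5.00), against 3.45, 4.20 and 3.72 in controls (1.24 ± 0.20, adjusted p = 0.000882). Neither overlapped the controls. Ccna2 rose by 0.84 ± 0.18 (adjusted p = 0.0108; 0.0825 without control 4), and Cdk1, at 4.14 to 4.57 against 3.17, 2.88 and 3.84 in controls, did not pass (adjusted p = 0.06). Of 22 markers of liver progenitors and carcinoma 6 rose (Ly6d, Prom1, Golm1, Abcc4, Cd44 and Anxa5), with a median of 0.48. Golm1, the Golgi protein GP73, lay between 5.72 and 5.92 (median 5.76), against 5.03, 4.90 and 4.51 in controls (0.98 ± 0.15, adjusted p = 0.00054). Cd24a, a marker of bile duct and progenitor cells, lay between 4.82 and 5.89 (median 5.36), against 3.99, 4.22 and 3.61 in controls (1.34 ± 0.22, adjusted p = 0.000882). It is counted on the list of bile duct cell markers and not among the 22. Of 15 measured genes on that list 2 rose, Cd24a and Prom1. Their differences were positive for 8 and negative for 7, with a median of 0.06. Afp and Gpc3, fetal genes that return in hepatocellular carcinoma and were picked after their values were seen, lay between 2.86 and 4.74 and between 3.86 and 5.47 in DEN/CCl4 livers, against 3.01 to 3.48 and 3.80 to 4.07 in controls, and neither passed (adjusted p = 0.9 and 0.762). Mouse 81 held the highest value of both. Prom1 lost its call without control 4 (adjusted p = 0.0567), Abcc4 without control 50 (adjusted p = 0.0901), and Cd44 and Anxa5 without either (Cd44 0.0763 and 0.113, Anxa5 0.221 and 0.0915).

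Of 11 genes of NRF2 and glutathione metabolism 2 rose, Gstm3 and the carbonyl reductase Cbr3, with a median of 0.45. Cbr3 (4.48 to 5.15 against 4.16, 3.85 and 3.28 in controls, adjusted p = 0.00819) lost its call without control 50 (adjusted p = 0.113). The metallothionein Mt1 rose by 1.42 ± 0.33 (adjusted p = 0.0181), with 6.22 to 7.71 (median 6.94) against 6.03, 5.43 and 5.09 in controls, and lost its call without control 49 (adjusted p = 0.0616) or 50 (adjusted p = 0.149). Acute phase genes were set apart by the controls themselves. Saa1, a serum amyloid, was 7.51 to 10.65 (median 8.58) in DEN/CCl4 livers, against 12.16, 10.51 and 8.71 in control mice 4, 49 and 50, and Saa2 was 4.96 to 7.77 (median 5.81) against 11.20, 7.52 and 5.59. Control mouse 4 thus held the highest level of both, and neither passed limma's test (adjusted p = 0.529 and 0.579). The part of this control's acute phase level in the calls that it carries was not tested.

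The matched comparison differs from that of all 9 DEN/CCl4 vehicle mice with the same 3 controls, in which 348 genes (2.6%) passed. Thrsp and Aacs were among the genes that differed. On the list of fatty acid synthesis and storage, which holds Thrsp, 1 of 21 measured genes rose and 2 fell, with a median of -0.02. Thrsp, the lipogenic factor Spot 14, lay between 9.21 and 9.76 (median 9.42) in mice 76 to 81 and between 10.87 and 11.05 in mice 92 to 94, against 10.61, 11.06 and 10.98 in controls. Mice 76 to 81 were below all others (-1.43 ± 0.30, adjusted p = 0.0108), while the pooled 9 gave an adjusted p of 0.273. Aacs, which activates acetoacetate for lipid synthesis, lay between 5.04 and 6.41 (median 6.17) in mice 76 to 81 and between 7.51 and 7.88 in mice 92 to 94, against 7.05, 7.16 and 6.94 in controls (-1.13 ± 0.27 for 76 to 81, adjusted p = 0.0209; pooled adjusted p = 0.625). Srebf1, the master factor of lipid synthesis, lay between 8.78 and 9.08 in mice 76 to 81, against 9.24, 9.98 and 10.10 in controls, and did not pass (-0.86 ± 0.25, adjusted p = 0.074). Without control 50 the adjusted p of Thrsp was 0.076, and that of Aacs was 0.0855, 0.0785 and 0.079 without control 4, 49 and 50. Thrsp reached 0.05 without control 49. Lipogenic genes follow feeding and the clock, and the runs were separated by clock genes, so hour of death, feeding and damage cannot be told apart for them.

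Between mice 92 to 94 and mice 76 to 81 themselves, 148 genes passed (1.11%), 85 higher (0.635%) and 63 lower (0.47%) in mice 92 to 94. These include clock genes, on which the mice were chosen. Outside the clock lists, 8 genes that passed for mice 76 to 81 against control also differed between these runs: Thrsp, Aacs, Anks4b, 3110082I17Rik, Rnf145, Igf2bp2, Cdc42ep5 and Tuba4a. Igf2bp2, an RNA-binding protein that stabilises transcripts, lay between 4.03 and 4.57 (median 4.16) in mice 76 to 81 and at 2.56, 3.44 and 3.52 in mice 92 to 94, against 2.83, 3.57 and 3.43 in controls. It was high only in mice 76 to 81, with 0.95 ± 0.19 against control (adjusted p = 0.00749, and 0.0956 without control 4) and an adjusted p of 0.00304 between the runs. Rnf145, a ubiquitin ligase of sterol control, differed otherwise: it lay between 6.79 and 7.26 (median 7.07) in mice 76 to 81 and between 7.89 and 7.98 in mice 92 to 94, against 6.26, 6.38 and 5.77 in controls. Tuba4a likewise stepped down in both runs, with 9.51 to 9.75 (median 9.69) in mice 76 to 81 and 8.85 to 9.33 in mice 92 to 94, against 10.25, 10.28 and 10.34 in controls. Tspan7, Vegfa, Sult1b1, Fcer1g and Nkg7 passed in the matched comparison (adjusted p = 0.00699, 0.017, 0.00983, 0.0102 and 0.0154) and gave 0.0869, 0.164, 0.1, 0.0962 and 0.0755 in the pooled one. Mt2, Postn and Cdk1 went the other way, with adjusted p = 0.0548, 0.0509 and 0.06 in the matched comparison and 0.0164, 0.0169 and 0.0185 in the pooled one. None of these 8 genes passed the test between the runs. Without control 50 the adjusted p was 0.072 for Rnf145, 0.093 for Anks4b, 0.164 for Vegfa and 0.0687 for Sult1b1. Without control 4 it was 0.0791 for Tspan7, and without control 49 it was 0.128 for Nkg7. Fcer1g and 3110082I17Rik lost their calls without control 4 (0.0939 and 0.0828) or 50 (0.0731 and 0.0575), and Cdc42ep5 without any 1 control or either of mice 77 and 79 (0.0651 to 0.218).

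**Figure D4:**
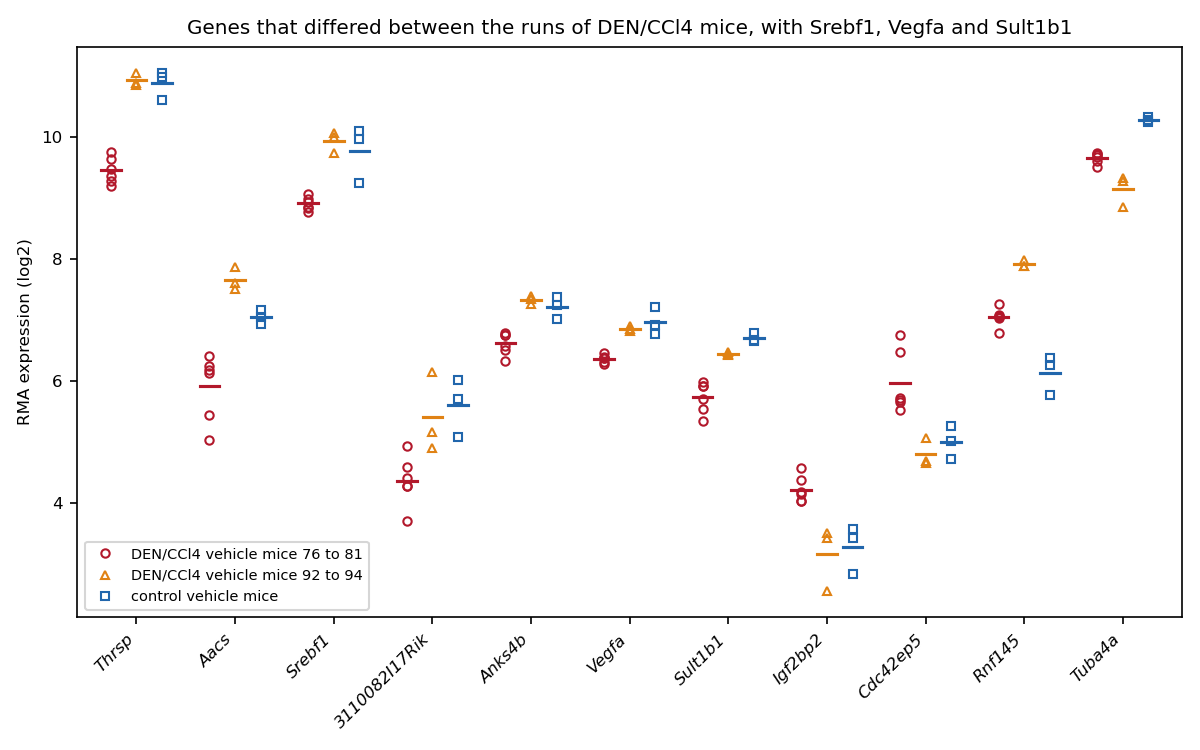
Expression (y axis, RMA log2) in each DEN/CCl4 vehicle mouse numbered 76 to 81 (circles), each numbered 92 to 94 (triangles) and each control vehicle mouse (squares) for 11 genes, with bars for means. Mice 92 to 94 lie at or near control level for Thrsp and Igf2bp2 and beyond mice 76 to 81 for Rnf145 and Tuba4a.

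The 6 mice were not alike in every gene. Pearson's r over all genes between pairs of the 6 was 0.970 to 0.983, and between pairs of controls 0.970 to 0.972. Genes whose highest mouse stood at least 1 log2 unit above the next numbered 15 in mouse 80, 8 in mouse 78, 5 each in mice 76 and 79, and 1 each in mice 77 and 81. Of the 15 in mouse 80 the 5 with these values were picked after they were seen: Cxcl13, a B cell chemokine, at 8.63 with 4.13 to 5.56 in the other 5 mice and 4.77 to 5.39 in controls; Marco at 8.53; Adgre1, the macrophage antigen F4/80, at 8.43; Timd4, a receptor for phosphatidylserine, at 5.84; and Spic, a factor of red pulp macrophages, at 5.08. Adgre1 lay between 6.23 and 6.86 in the other 5 mice and between 5.98 and 6.44 in controls, and Spic between 2.94 and 3.37 and between 2.89 and 3.06. The 15 also held Ms4a7 at 6.11, Fpr1, a formyl peptide receptor, at 5.69 and Hmox1, haem oxygenase, at 6.73. Of the Kupffer cell genes described above, Cd163 was lowest in mouse 80, at 4.47, and Clec4f at 7.42 was below the 7.53 of mouse 76. The Kupffer list's mean level was highest in mouse 80, at 6.45, against 5.57 to 5.97 in controls. Marco, Adgre1 and Timd4, picked above for their height in mouse 80, are among its 10 genes. This mean is therefore not independent of that choice. Dmbt1, a secreted scavenger protein of epithelia, stood at 7.19 in mouse 78 and 1.91 to 2.62 in the other 5, and at 6.11 in mouse 94, against 2.16 to 3.15 in controls. Ighg2c, an antibody heavy chain, stood at 6.42 in mouse 79, with 2.58 to 3.09 in the other 5 and 2.65 to 3.41 in controls. What these mice had in common apart from these genes was not tested.

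**Figure D5:**
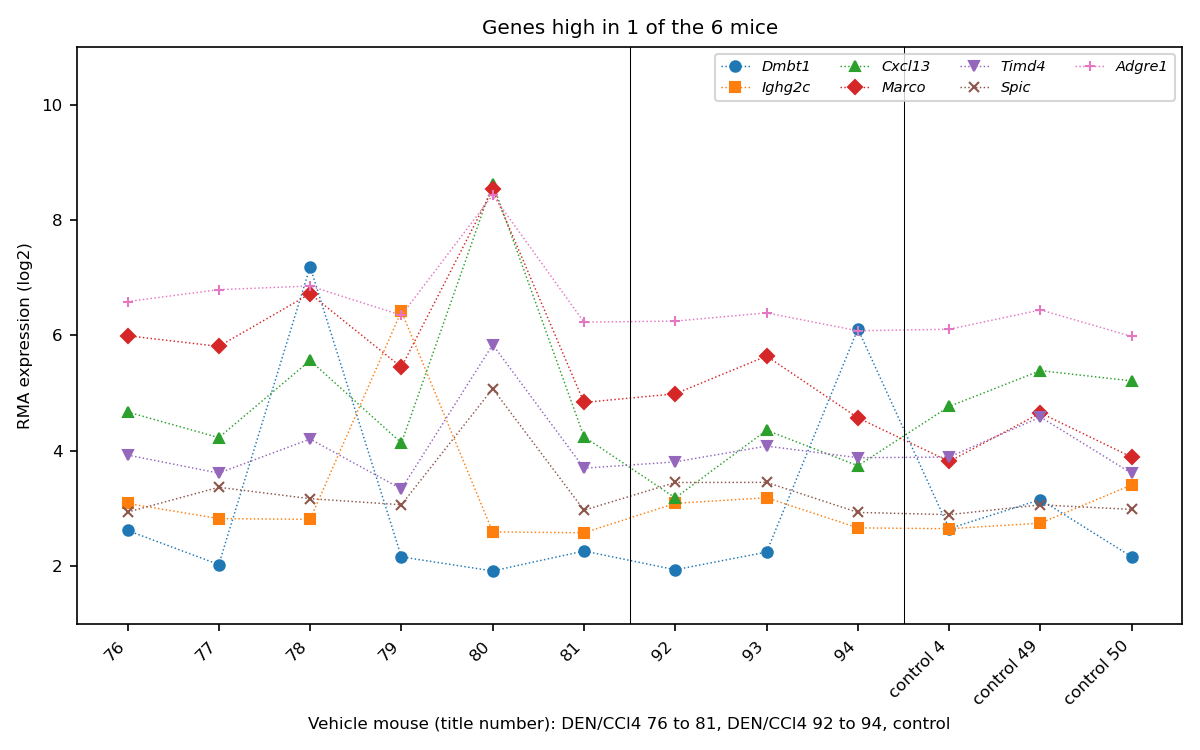
Expression (y axis, RMA log2) of 7 genes in each of the 12 vehicle mice (x axis, title numbers), with the DEN/CCl4 mice numbered 76 to 81 at the left, those numbered 92 to 94 in the middle and controls at the right; lines only join points of 1 gene. Cxcl13, Marco and Adgre1 peak above 8 in mouse 80, Ighg2c peaks in mouse 79, and Dmbt1 peaks in mice 78 and 94.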

How the data were processed

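The 22 arrays are log2 values that the authors deposited, made with the robust multiarray algorithm (RMA) from an Affymetrix HT MG-430 array and custom probe sets mapped to Entrez genes, per the series' design text. The software version and the scan dates are not given in the sources used here. RMA brings the arrays to a common distribution, so a change in total RNA is not visible in these values, and the number of arrays limits the precision. Medians of the deposited values still ran from 2.83 to 2.96 in the 9 arrays compared, and were 3.05 and 3.09 in nintedanib arrays 89 and 91. Symbols came from RefSeq (GRCm38.p6) by Entrez ID for 13242 of 13392 genes, with 150 unnamed.

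Differences are between group means on the log2 scale, fitted with limma 3.58.1 (lmFit and eBayes, R 4.3.3) over all 22 arrays in 5 group means with 17 residual degrees of freedom. The nintedanib mice formed group means of their own there: mouse 82 alone, and mice 83 to 91. Adjusted p-values are Benjamini-Hochberg over all 13392 genes, with 0.05 as the threshold, and the fit was checked on simulated data. P-values measure the spread between the mice, whose litters and cages are not given.

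The mice, the 51 gene lists and the motifs were chosen with earlier results of these data known. The genes named are, outside the clock lists, the 12 largest rises and 12 largest falls among called genes whose groups did not overlap, up to 4 genes with the smallest p from each list, up to 8 called only in the matched or only in the pooled comparison, and the 6 with the largest SD among the 6 mice. The 8 genes that differ between the runs and those marked as picked after their values were seen are additions. Spic and Adgre1 are likewise additions. Alternatives were other sets of arrays, pooling mice 92 to 94 with mice 76 to 81, other normalization and variance settings, array weights, Dbp minus Arntl as a covariate, stricter thresholds, a filter on the dimmest 25% of genes, and each mouse left out. The covariate fit set all 9 DEN/CCl4 vehicle mice against control.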

Additional observations from a re-analysis of the deposited data

Results flagged for a closer look

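Among 137 genes named in the text, 8 had 1 of the 6 DEN/CCl4 mice far from the others. Chance gives about 1 in 20 such groups, and 8 of 137 is near that share. Mouse 80 stood apart for Cxcl13 at 8.63, Adgre1 at 8.43, Timd4 at 5.84 and Spic at 5.08, where the next highest of the 6 were 5.56, 6.86, 4.20 and 3.37. Mouse 79 stood apart for Ighg2c at 6.42 (next 3.09) and for Nat8f5, an acetyltransferase gene, at 6.83 (next 6.43). Mouse 77 was lowest for Cyp2c54 at 9.12, with 9.79 to 10.05 in the other 5. Mouse 78 stood apart for Dmbt1 at 7.19 (next 2.62). Some of these genes were named because of their spread or because mouse 80 was high, so the number of such mice is not independent of the choice.

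Mice 92 to 94 differed from mice 76 to 81 in 8 genes that also passed for mice 76 to 81 against control, by limma's contrast of these groups. The differences, mice 92 to 94 minus mice 76 to 81, were 1.75 for Aacs (adjusted p = 0.000383), 1.48 for Thrsp (adjusted p = 0.011), 1.04 for 3110082I17Rik (adjusted p = 0.0383), 0.87 for Rnf145 (adjusted p = 0.00787) and 0.71 for Anks4b (adjusted p = 0.00183). They were -0.51 for Tuba4a (adjusted p = 0.0334), -1.05 for Igf2bp2 (adjusted p = 0.00304) and -1.17 for Cdc42ep5 (adjusted p = 0.0151). The share of the clock, of feeding and of damage in these differences was not tested.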

How the results depend on the processing

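The count of genes called against control was 290 to 464 over 10 other settings of the fit. Pooling and the covariate setting compared all 9 DEN/CCl4 vehicle mice with control, and the others compared mice 76 to 81. When mice 92 to 94 were pooled in, 257 of the 318 genes remained called. With Dbp minus Arntl as a covariate over the 12 vehicle arrays, 373 genes were called, 269 of them among the 318. That fit is therefore not a clock-adjusted form of the comparison of mice 76 to 81 alone. At an adjusted p under 0.01 the count was 112 (67 higher, 45 lower), and with a log2 difference of at least 1 it was 97 (60 higher, 37 lower). Nintedanib arrays 89 and 91, which only feed the spread, had medians of 3.05 and 3.09, against 2.83 to 2.96 in the 9 arrays compared. Without these arrays 464 genes passed, 272 higher and 192 lower, and all 318 were among them. With 1 mouse left out the count was 121 to 316, with 73 to 202 higher and 48 to 124 lower, and the lowest were without control 50 (121) and control 4 (137). Between mice 92 to 94 and mice 76 to 81, array weights gave 264 (145 higher, 119 lower), an adjusted p under 0.01 gave 81 (47 and 34), and a log2 difference of at least 1 gave 65 (41 and 24). With 1 mouse left out that count was 106 to 158, with 61 to 87 higher and 45 to 71 lower. Array weights were fitted without nintedanib mouse 82, a group of 1.

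Of 109 genes of the text that passed, 37 did so in all 19 settings, and 38 with any 1 of the 9 mice left out. Settings other than a mouse left out also cost calls, and most of these losses are not given gene by gene above. Of the 109, 16 were lost with only the 9 arrays compared, 10 with only the 12 vehicle arrays and 13 with the covariate. Pooling cost 20, array medians subtracted 10, quantile normalization repeated 7, and array weights 2. Genes that did not pass changed sign as follows. With 1 mouse left out, Timd4 ran from -0.27 (without mouse 80) to 0.35, with -0.14 without control 50, Dmbt1 from -0.46 (without mouse 78) to 0.62, Ighg2c from -0.16 (without mouse 79) to 0.69, Cxcl13 from -0.55 (without mouse 80) to 0.35, with -0.05 without control 4, and Clec4f from -0.071 to 0.12. Cxcl13 gave -0.37 when mice were pooled. Clec4f, at -0.01, gave 0.0072 with array medians subtracted, 0.025 with quantile normalization repeated and 0.012 with array weights. Each rests on the mouse or setting named, and the cause was not tested. No paired analysis was possible because the title numbers are unique to each mouse and pair none across groups.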

Other observations

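None of 10 endoplasmic reticulum stress genes, 7 heat shock genes, 10 cholesterol genes or 16 genes of gluconeogenesis and glycogen passed limma's test, with medians of -0.04, -0.05, -0.21 and 0.0035. At an unadjusted p under 0.05 there were 0, 1, 0 and 3 of them, against 13.3% of all genes. The mean heat shock level was 5.39 in control 4, 4.63 in control 49 and 4.65 in control 50, against 4.76 to 4.93 in DEN/CCl4 livers. Without control 4, 1 heat shock gene passed, and it was higher. Of 17 genes of PPAR-alpha and fatty acid oxidation 15 had positive differences with a median of 0.39, and 1 passed, Ucp2, an uncoupling protein (0.50 ± 0.13, adjusted p = 0.0438), which did not pass without control 4 or 50 or any of mice 76, 77, 78 and 80 (0.0702 to 0.319). At an unadjusted p under 0.05 there were 9 of the 17, 8 of them higher. Fgf21, a fasting hormone of the liver, lay between 4.72 and 6.36 (median 5.48) in DEN/CCl4 livers, against 2.50, 4.61 and 4.30 in controls, and did not pass (1.71 ± 0.48, adjusted p = 0.0593). It was 4.46, 3.47 and 4.63 in mice 92 to 94. Among 14 tubulin and actin genes 4 rose (Tuba8, Vim, Tpm1 and Tmsb4x) and Tuba4a fell, and 7 had an unadjusted p under 0.05. Without control 4, 2 of the 14 rose, and without control 50, 1 did. Vim did not pass without control 4 or 50 (0.143 and 0.136), Tpm1 without control 50 (0.0558), and Tuba4a with quantile normalization repeated (0.071). Tmsb4x did not pass without control 4 or 50 or any of mice 76, 77, 78 and 80 (0.0565 to 0.241).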
